A study of Canis lupus familiaris with 186 samples.

Results

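The HOX cluster genes are the 38 genes whose names in the count table consist of HOX, a cluster letter from A to D and a paralog number, out of 37952 genes in that table. They were followed across 186 canine osteosarcomas, 1 tumor per dog, from the National Cancer Institute's DOG2 collection. All tumors were primary appendicular osteosarcomas, a bone cancer of the limbs, sampled before any treatment, and the labels place 93 in trial COTC021 and 93 in trial COTC022. The dogs were privately owned and varied in breed, age and sex, so the tumors do not share a genetic background. The paper describes random assignment to treatment arms of equal size after sampling. The labels name a trial and no arm. The trials are also equal in size, so the trial label may stand for the arm, which was not tested. Trial was used here as a comparison and as a term in the fits along the scores. RNA was taken from pieces of whole tumor, so each value is an average over tumor cells, immune cells, vessels and any neighbouring tissue. The labels carry no skeletal site, outcome or GS-1 cluster for a dog, and none was assigned here. Levels of 9 osteoblast markers were read in CPM, the counts of a gene scaled to a fixed library total. The sum of the 9 had a median of 46100 CPM and a lowest value of 862.7 CPM. Most of it was COL1A1 and COL1A2, with medians of 20450 and 23690 CPM, so the sum says little of the other markers. RUNX2 and SP7 were detected in 186 and 177 tumors, with medians of 212 and 23.2 CPM.

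HOX genes encode transcription factors that tell a cell where it lies along the body. They sit side by side in 4 clusters, and in the embryo the genes at the low-numbered end are used toward the head and those at the high-numbered end toward the tail and, in the A and D clusters, toward the tip of the limb. Genes with the same paralog number in different clusters are the closest relatives. Mesenchymal cells of the adult skeleton keep part of the HOX pattern of the place where they arose. HOX proteins bind DNA together with partners of the PBX, MEIS and PKNOX families. PITX1 and TBX4 are factors of the developing hindlimb and TBX5 of the forelimb.

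All 38 genes were found in RefSeq's annotation of the dog genome build UU_Cfam_GSD_1.0. The A cluster held 11 of them on chromosome 14, the B cluster 10 between 24743539 and 24912969 of chromosome 9, the C cluster 9 between 45329789 and 45445321 of chromosome 27, and the D cluster 8 between 20228239 and 20324574 of chromosome 36. The annotated spans of some neighbours overlap: HOXA3 with HOXA4, HOXA5 and HOXA6, HOXA5 with HOXA6, HOXB3 with HOXB4, HOXB5 and HOXB6, HOXB8 with HOXB9, and HOXC4 with HOXC5, HOXC6, HOXC8 and HOXC9, and HOXC5 with HOXC6. Reads in a shared stretch could be split between those genes, and their separate values are uncertain to that extent.

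Libraries held 6587631 to 27420857 counts, 10797162 at the median. In 50 libraries the column name carries the mark __, and these were deeper (median 19440449 counts) than the other 136 (median 9851681), and they made up 18 of the COTC021 and 32 of the COTC022 tumors, so the group of libraries was a term in each fit. A gene was called detected in a tumor at 10 counts, worth 0.365 CPM in the deepest library and 1.518 CPM in the shallowest. No pair of libraries had a Pearson correlation above 0.956, so no library was treated as a copy of another. Each sample came from another dog, so the spread between samples is a spread between animals.

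Most HOX genes were transcribed in most tumors. Of the 38 genes, 14 were detected in at least 90% of tumors, 17 in 50 to 90% and 7 in fewer than 50%. A tumor had 11 to 36 HOX genes detected, with a median of 29. The median was 32 in the deeper group of libraries and 27 in the other, and after thinning every library to 6587631 counts the range over all tumors was 7 to 34 with a median of 25. The absolute counts of genes detected therefore moved with depth. CPM is not corrected for gene length, and a short gene gives fewer counts at the same number of transcripts, so levels are compared below for 1 gene between tumors and not between genes.

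**Figure D1:**
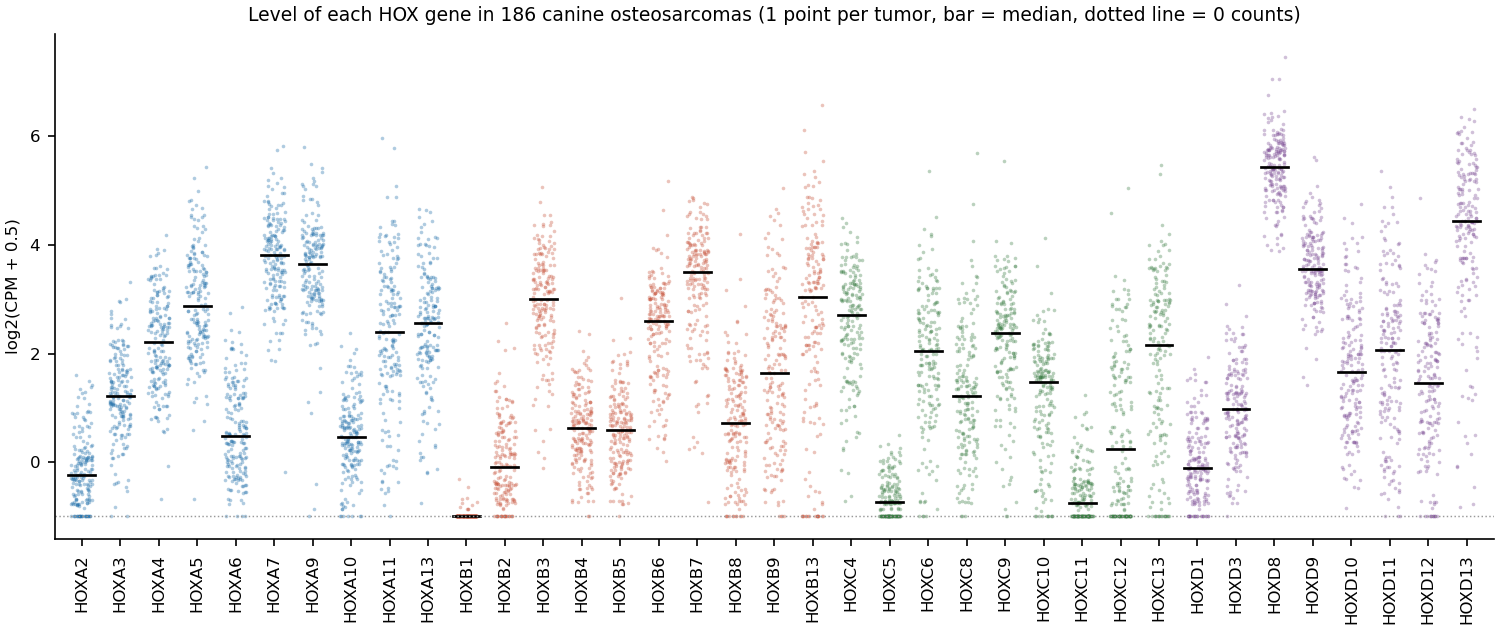
The level of each of 37 HOX genes is plotted on the vertical axis as log2(CPM + 0.5), with genes on the horizontal axis in order of paralog number within the A (blue), B (red), C (green) and D (purple) clusters, 1 point per tumor and a bar at the median of the 186 tumors. The lowest tumors of HOXD8 and HOXD9 lie farthest above the dotted line of 0 counts, while HOXB1, HOXC5 and HOXC11 stay near it. HOXB13, HOXC13, HOXD13 and HOXC12 spread most.

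In the D cluster, HOXD8 and HOXD9 varied least of the 14 genes detected in at least 90% of tumors, and the genes at the limb-tip end varied more. HOXD8, a gene from the middle of the cluster, was detected in all 186 tumors, at 14.2 CPM in the lowest tumor, 42.7 at the median and 177 in the highest. HOXD9 was likewise detected in all 186, at 2.19, 11.3 and 48.5 CPM. HOXD13, which patterns the digits, was at 0.0633, 21.2 and 91.0 CPM and was detected in 181 tumors. On the log2(CPM + 0.5) scale the SD across tumors was 0.61 for HOXD8, 0.68 for HOXD9 and 1.51 for HOXD13. HOXD10, HOXD11 and HOXD12, which pattern the middle and lower limb, were detected in 161, 152 and 141 tumors. HOXD3 was detected in 140 and HOXD1 in 54.

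The A cluster was broadly on. HOXA7 was detected in 185 tumors (0.38, 13.5 and 56.4 CPM in the lowest, median and highest), HOXA5 in 184, HOXA9 in 183, HOXA4 in 182 (0.127, 4.16 and 17.6 CPM), and HOXA13 in 177. HOXA13, the A cluster gene of the hand and foot, was at 0.0957, 5.44 and 24.9 CPM. HOXA11, which patterns the lower leg and forearm, was the most uneven of the cluster, at 0, 4.74 and 62.4 CPM with an SD of 1.38 on the log2 scale and 166 tumors detected. HOXA3 was detected in 158 tumors, HOXA6 in 107, HOXA10 in 105 and HOXA2 in 44.

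In the B cluster, HOXB3 and HOXB6 were detected in 183 tumors each and HOXB7 in 182. HOXB3 was at 0.423 CPM in the lowest tumor, 7.58 at the median and 32.9 in the highest, and HOXB7 at 0.102, 10.8 and 29.1 CPM. HOXB13, a gene at the tail end that lies apart from the rest of its cluster and is best known from the prostate, was detected in 155 tumors and had no count in 17. Its level was 0 in the lowest tumors, 7.73 CPM at the median and 94.9 CPM in the highest, and its SD of 1.84 on the log2 scale was the largest of the 38 genes. The second highest tumor was at 68.7 CPM. HOXB9 was detected in 140 tumors, HOXB4 in 118, HOXB5 in 113, HOXB8 in 110 and HOXB2 in 57, the last at no more than 5.37 CPM. HOXB1, the head-end gene, was the one HOX gene detected in no tumor: 175 tumors had no count and the highest count was 3.

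In the C cluster, HOXC12 and HOXC13 ran from no count to high levels. HOXC12 was detected in 88 tumors, had no count in 51, and reached 32.6 CPM. HOXC13, known from hair and nail, was detected in 140 tumors, had no count in 17, and was at 3.96 CPM at the median and 43.7 CPM in the highest tumor. The lower and upper quartiles were 0 and 2.80 CPM for HOXC12 and 0.951 and 7.41 CPM for HOXC13. Whether tumors with and without either gene form separate groups was not tested. HOXC4 was detected in 179 tumors, HOXC9 in 171, HOXC6 in 163, HOXC10 in 142 and HOXC8 in 138. HOXC10 had no count in 10 tumors, a median of 2.27 CPM and a highest value of 17.1 CPM. HOXC11 was detected in 10 tumors and HOXC5 in 3, and neither exceeded 1.87 CPM.

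1 tumor stood apart, COTC022 tumor 64 (numbers follow the order of the samples within a trial). It had 11 HOX genes detected, the fewest of all, and 45.2 CPM summed over the HOX genes, the lowest of 186. The low values were uneven. HOXC6, HOXC8, HOXC9, HOXC10, HOXC12, HOXC13, HOXB13 and HOXD12 had no count, HOXD13 had 1 count and HOXA7 had 6, against medians of 21.2 and 13.6 CPM for HOXD13 and HOXA7 in the other tumors. The genes without a count here were also at 0 elsewhere. In all, HOXC12 had no count in 51 tumors, HOXB13 in 17 and HOXC9 in 2. HOXB4, at 1.08 CPM against 1.05 in the others, HOXB5, at 1.52 against 0.995, and HOXB3, at 4.62 against 7.69, lay within the range of the other tumors. HOXD8 and HOXD9, at 17.5 and 7.15 CPM, also did, at ranks 7 and 25 from the lowest. The same tumor had the lowest sum of osteoblast markers, 862.7 CPM, with COL1A1 at 328 CPM and SP7 at 0.0633. ALPL, COL1A1 and COL1A2 were the lowest of 186. RUNX2, at 126 CPM, PHEX, at 3.16, and BGLAP, at 2.15, were less extreme, at ranks 39, 36 and 15 from the lowest. This tumor also had the highest sum of 6 leukocyte markers, 3705 CPM, with PTPRC at 1583 CPM. The fits by trial and along the scores, the median rho of neighbours and the correlations with limb factors were also computed without it. COTC021 tumor 12 had the second lowest sum over HOX genes, 70.4 CPM, with 13 HOX genes detected and the second highest leukocyte sum, 1623 CPM.

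Genes of the same cluster varied together across tumors more than genes of different clusters did. Over the 35 genes that passed the filter on low counts, Spearman's rho had a median of 0.404 for the 140 pairs within a cluster and 0.199 for the 455 pairs between clusters. Within a cluster, rho was highest between neighbours. Its median was 0.550 for 31 pairs of neighbours, 0.445 for genes 2 places apart, 0.462 for 3, 0.365 for 4 and 0.312 for 5 or more. Places were counted among the 35 genes, so HOXC4 with HOXC6 and HOXC10 with HOXC12 count as neighbours, without HOXC5 and HOXC11. Some pairs 2 or 3 places apart, such as HOXA3 with HOXA5 and HOXB3 with HOXB6, also have overlapping spans and were kept. The 26 neighbours whose spans do not overlap had a median of 0.532, and within each group of libraries and each trial the median of the neighbours was 0.507 to 0.609. These values are descriptions, and the pairs share genes and tumors.

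The tightest pairs lay in the D, A and B clusters. HOXD10 and HOXD11 had a rho of 0.882, and HOXD12 and HOXD13 one of 0.736, with spans that do not overlap. HOXA5 and HOXA6 had a rho of 0.841, HOXB8 and HOXB9 0.733 and HOXB3 and HOXB4 0.731, and in each of these the spans overlap. All 21 pairs of the C cluster were above 0, with a median of 0.568 and a lowest rho of 0.286.

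A shared paralog number went with little shared variation. The 33 pairs with the same number in different clusters had a median rho of 0.215, and the 422 other pairs between clusters 0.199. The 13th genes were an uneven case. HOXB13 had a rho of 0.599 with HOXC13 and 0.583 with HOXD13, and HOXC13 and HOXD13 one of 0.450, while HOXA13 had 0.0639, 0.152 and 0.242 with HOXB13, HOXC13 and HOXD13. HOXA11 ran against most genes of the B and C clusters. Its rho with the 7 C cluster genes was -0.341 to -0.0296, with a median of -0.239, and with the 9 B cluster genes it had a median of -0.129, while with HOXB2 it was 0.0369. Within its own cluster it was above 0 with 9 of 10 genes, with a median of 0.170, among them HOXA13 at 0.587, HOXA10 at 0.342 and HOXA9 at 0.307, and in the D cluster with 4 of 8.

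**Figure D2:**
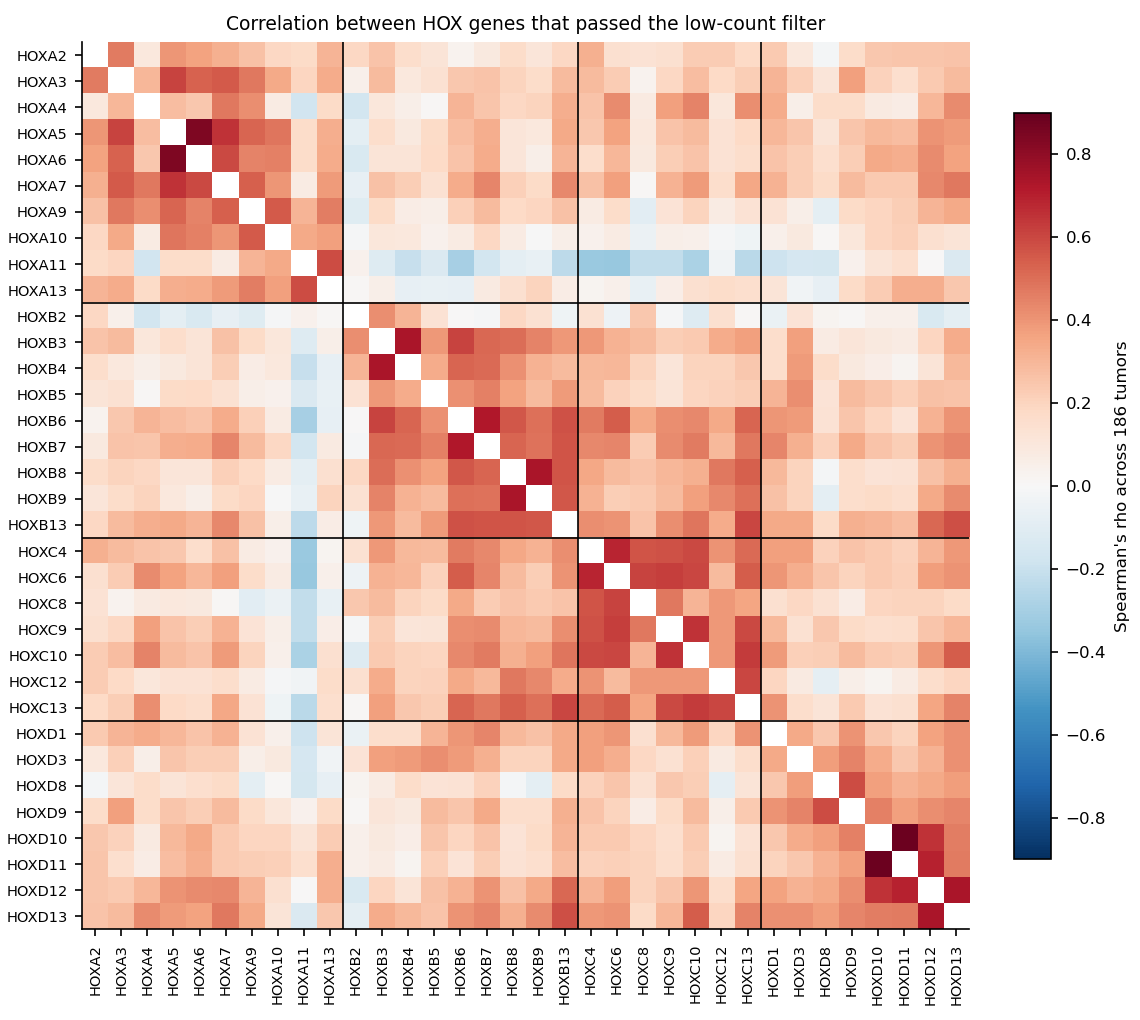
Spearman's rho across the 186 tumors is shown for each pair of 34 HOX genes that passed the filter on low counts, with genes in order of paralog number, black lines between the clusters, red for positive and blue for negative values and a blank diagonal. The blocks along the diagonal are darker red than the rest, and the row of HOXA11 is blue against the B and C clusters, except HOXB2.

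Among genes outside the clusters, the 5 most like each chosen HOX gene by rho over the 186 tumors were ranked. For HOXC10 they were DLX4 (0.611), DLX6 (0.550), TMEM9 (0.517), KRTCAP2 (0.514) and DLX5 (0.507). DLX genes are homeobox genes, and DLX5 acts in osteoblasts. For HOXB7 they were PCGF2 (0.577), DLX4 (0.569), BEAN1 (0.534), C14H1orf35 (0.514) and TOR3A (0.512). PCGF2 and DLX4 lie on chromosome 9, as HOXB7 does, from position 23443499 and 25948072. For HOXA11 the closest were SAV1 (0.449), CSRP2 (0.412), BASP1 (0.405), GPR135 (0.392) and CPXM1 (0.392), and for HOXD10 CUBN (0.368), FAM83C (0.365), BEAN1 (0.364), TMEM67 (0.363) and CPS1 (0.359). A HOX gene of the same cluster was closer than each of these: HOXC9 (0.652) for HOXC10, HOXB6 (0.720) for HOXB7, HOXA13 (0.587) for HOXA11 and HOXD11 (0.882) for HOXD10.

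The labels hold no limb, so the HOX genes were set beside the limb factors measured in the same tumors. PITX1 was detected in 137 tumors (0 to 46.4 CPM, median 1.85), TBX4 in 56 (0 to 17.4 CPM, median 0.159) and TBX5 in 101 (0 to 27.2 CPM, median 1.10). By detection, they did not part the tumors into those with hindlimb and those with forelimb factors. PITX1 and TBX5 were both detected in 84 tumors, only PITX1 in 53, only TBX5 in 17 and neither in 32. TBX4, whose gene is used in the hindlimb, was detected together with TBX5 in 29. All 3 rose with the cartilage score described below.

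Correlations of the HOX genes with the limb factors were weak, with rho between -0.301 and 0.347 over 114 pairs. A two-sided permutation test of rho passed an adjusted p of 0.05 (Benjamini-Hochberg over the 114 pairs) for 6 HOX genes with PITX1, 3 with TBX4 and 8 with TBX5, which are 15.8%, 7.89% and 21.1% of the 38. Of the 15865 genes other than the limb factor itself that passed the filter, 21.7%, 5.49% and 16.1% had a rho with PITX1, TBX4 and TBX5 at least as far from 0 as 0.207, the weakest HOX value that passed, so these counts do not set the HOX genes apart from other genes. With the hindlimb factors, HOXA13 had a rho of 0.319 with PITX1 (adjusted p 0.00114, Pearson's r 0.294) and of 0.278 with TBX4 (adjusted p 0.00195, r 0.292). HOXA11 had 0.289 with TBX4 (adjusted p 0.00142, r 0.232), HOXB9 had 0.290 with PITX1 (adjusted p 0.00195, r 0.303), and HOXC12 had 0.208 with PITX1 and 0.262 with TBX4. HOXD1 and HOXD8 ran against PITX1, at -0.237 and -0.223.

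With the forelimb factor TBX5, HOXB2 had a rho of 0.347 (adjusted p 0.00114, r 0.276), and 7 genes had negative values, led by HOXA4 at -0.301 (adjusted p 0.00142, r -0.283) and HOXC10 at -0.272 (adjusted p 0.00195, r -0.264). The others were HOXA7, HOXD1, HOXD13, HOXB7 and HOXB13, from -0.244 to -0.216. For HOXA7 and HOXB13 the adjusted p of Pearson's r was 0.075 and 0.0836. Leaving out the 2 tumors farthest from the median of the limb factor left r at 0.334 for HOXA13 with PITX1, 0.249 for HOXA11 with TBX4, 0.323 for HOXB2 and -0.291 for HOXA4 with TBX5.

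Within the trials the values that had passed kept their sign and mostly did not pass on their own. Each trial is part of the tumors on which these values had passed, so the kept sign is no independent support. HOXA13 with PITX1 had a rho of 0.267 in COTC021 and 0.375 in COTC022, HOXA11 with TBX4 0.197 and 0.382, and HOXB2 with TBX5 0.402 and 0.268. In the 50 deeper libraries no HOX gene passed with any of the 3 factors, with rho between -0.433 and 0.447. Without COTC022 tumor 64 the counts were 7, 3 and 8.

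**Figure D3:**
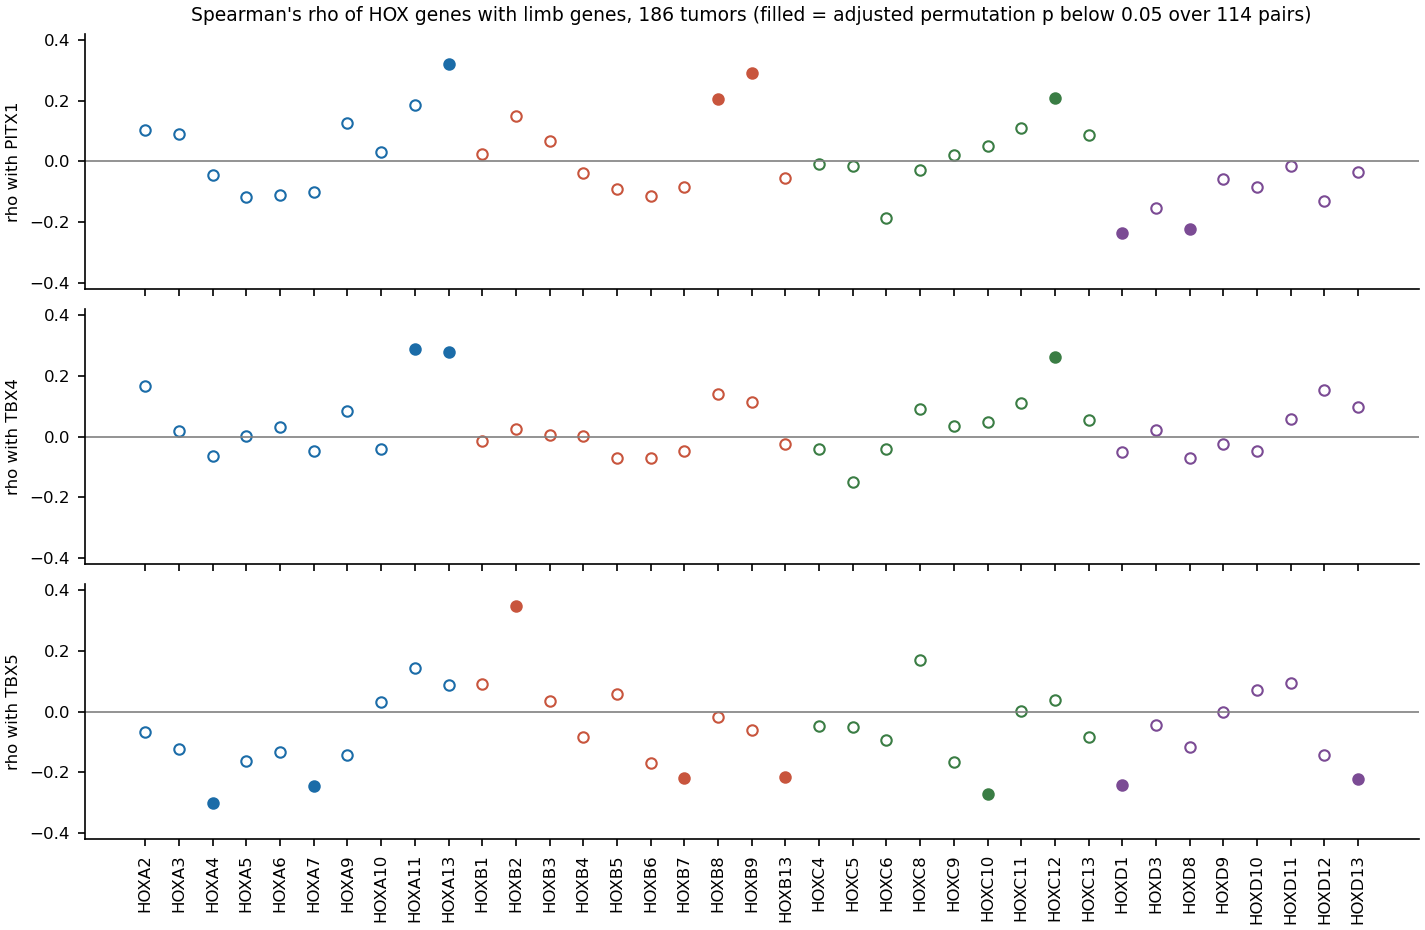
Spearman's rho of each of 37 HOX genes (horizontal axis, coloured by cluster) with PITX1, TBX4 and TBX5 (from top to bottom) across the 186 tumors, with filled points for an adjusted permutation p below 0.05 over 114 pairs. The filled points for PITX1 are 4 positive ones, from 0.207 to 0.319, and the negative HOXD1 and HOXD8, while they are HOXA11, HOXA13 and HOXC12 for TBX4, and are negative for TBX5 except HOXB2.

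No HOX gene passed the test of a difference between the trials. Of 35 HOX genes tested, 0 passed limma's test at an adjusted p of 0.05 and 0 at an unadjusted p of 0.05, where 0 of all 15866 genes (0.00%) passed the adjusted and 1672 the unadjusted threshold. edgeR's quasi-likelihood test and DESeq2, which called 191 and 188 genes in all, also called 0 HOX genes. HOXD13 was at 0.0884 to 91.0 CPM (median 23.2) in COTC021 and 0.0633 to 67.8 (median 19.6) in COTC022, and HOXB13 at 0 to 94.9 (median 8.62) and 0 to 68.7 (median 6.81), so the trials overlapped over nearly the whole range. The difference of COTC022 from COTC021 was lowest for HOXC10, at -0.48 ± 0.27 (log2, SE, adjusted p 0.53), and the SE was 0.09 to 0.41 over the 35 genes. In simulated data of this size limma recovered 36 of 67 genes changed by 0.5 (log2) and 52 of 67 changed by 1. Those genes were drawn from all genes tested, and differences of 0.5, and for some genes of 1, could be missed. HOXC12, HOXB13 and HOXC13 had an SE of 0.41, 0.40 and 0.37 in the test between trials. How often changes in such genes would be recovered was not tested.

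Most of the HOX genes tested were lower in tumors with a higher immune signature. GS-1 is a published canine osteosarcoma signature on whose expression the study clustered the tumors, and most of its genes are of immune cells. It enters here as a score per tumor, the mean z-score of the 27 of its genes that were used, and a slope is the change in log2 expression per SD of that score. Of the 35 HOX genes tested, 21 fell along the score and 0 rose in limma's test at an adjusted p of 0.05. Of all 15866 genes, 47.7% passed, 23.7% falling and 24.0% rising. The median slope was -0.30 over the 35 HOX genes and -0.01 over all genes. All 5 leukocyte and 4 endothelial markers tested rose along the score, and 6 of 9 osteoblast and 8 of 10 cartilage markers fell. The leukocyte marker CD53 is itself a gene of the score, so its rise was given in advance. A lower HOX level through fewer tumor cells cannot be told apart from less HOX RNA per tumor cell in such samples.

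In limma the steepest slopes were those of HOXD13 and HOXD12, at the limb-tip end of the D cluster. The order depended on the method. HOXC13 was steepest in DESeq2 and edgeR, at -0.61 and -0.60, and HOXD13 had a slope of -0.46 in both. Of the neighbouring D cluster genes, HOXD11 (-0.29, adjusted p 0.083) and HOXD10 (-0.19, adjusted p 0.12) did not pass in limma. HOXD13 had a slope of -0.62 ± 0.11 (SE, adjusted p 5.4e-07) and HOXD12 of -0.59 ± 0.13 (adjusted p 6.6e-05). HOXC10 had -0.55 ± 0.13, HOXC13 -0.54 ± 0.18, HOXB13 -0.50 ± 0.20 and HOXC6 -0.48 ± 0.12. HOXB13 and HOXC13 are also members of ISA 4, a signature the study chose on these same tumors. In the A cluster 8 of 11 genes fell, and the smallest adjusted p of all HOX genes was that of HOXA4, with a slope of -0.45 ± 0.06 (adjusted p 2.3e-10), and HOXA7 had a slope of -0.32 ± 0.05 (adjusted p 3.4e-07). In the C cluster 5 of 7 and in the D cluster 5 of 8 fell, and HOXD8 and HOXD9, the steady genes, fell by 0.12 and 0.18.

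Some HOX genes had slopes near 0. In the B cluster 3 of 9 fell, HOXB8, HOXB9 and HOXB13, while HOXB2, HOXB3, HOXB4 and HOXB5 had slopes of 0.14, 0.08, 0.10 and 0.03 with adjusted p of 0.34 to 0.74. In the A cluster HOXA10 and HOXA11 had slopes of -0.05 ± 0.10 and 0.00 ± 0.13, beside HOXA13, which fell by 0.38. The differences between these slopes were not tested.

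The number of HOX genes that fell differed between subsets of the tumors. Each subset is part of the tumors on which the 21 genes were chosen, so a shared direction is no independent support. Slopes of some other HOX genes changed sign, as listed further below. The 21 genes that fell had a negative slope in COTC021, in COTC022 and in both groups of libraries, and 16, 11, 2 and 20 of them passed in COTC021, COTC022, the 50 deeper libraries and the other 136. Of all 15866 genes, 9.32%, 16.4%, 8.68% and 18.2% fell in these subsets, where 45.7%, 31.4%, 5.71% and 65.7% of the 35 HOX genes did (23 genes in the other 136 libraries), so in the deeper libraries the share of HOX genes was below that of all genes. The genes that passed in the deeper libraries were HOXA4, with a slope of -0.38, and HOXA7, with -0.36. No interaction of the score with trial or with the group of libraries passed for a HOX gene. Without COTC022 tumor 64, 16 of the 21 passed, and HOXA9, HOXB13, HOXC4, HOXC9 and HOXD8 did not. With the osteoblast score in the same fit 15 passed, where 20.7% of all genes fell, and HOXD13 then had a slope of -0.49 and HOXA4 of -0.41.

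**Figure D4:**
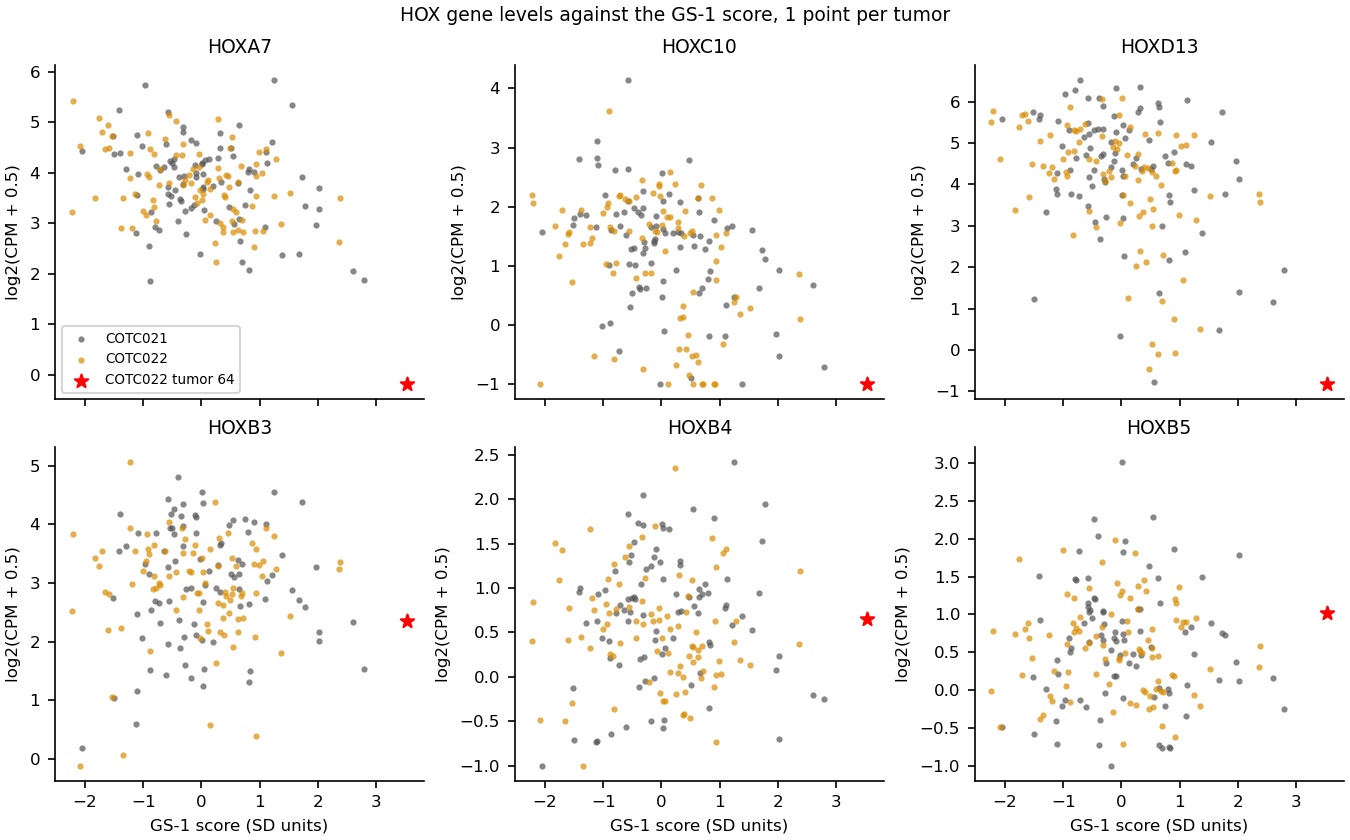
The level of 6 HOX genes as log2(CPM + 0.5) (vertical axis) against the GS-1 score in SD units (horizontal axis), 1 point per tumor, grey for COTC021, orange for COTC022 and a red star for COTC022 tumor 64. HOXA7, HOXC10 and HOXD13 in the top row decline to the right, HOXB3, HOXB4 and HOXB5 in the bottom row do not, and the star lies at the right end in each panel, lowest for the top row and inside the cloud for the bottom row.

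Along the osteoblast score, the mean z-score of 9 genes of bone matrix and bone-forming cells, the HOX genes moved the other way. Of 35 HOX genes, 17 rose and 0 fell, where 15.7% of all genes rose and 18.3% fell. The median slope was 0.23 over the HOX genes and 0.00 over all genes. HOXB13 and HOXC13 led, with slopes of 0.90 ± 0.23 (adjusted p 0.00076) and 0.78 ± 0.20 (adjusted p 0.00089), followed by HOXC12 at 0.65 ± 0.23, HOXD12 at 0.55 ± 0.15 and HOXD13 at 0.51 ± 0.12. edgeR called 12 HOX genes, 10 of them among the 17, and DESeq2 15, 11 of them among the 17, and neither called HOXC12, which had slopes of 0.16 (adjusted p 0.57) in edgeR and 0.16 (adjusted p 0.54) in DESeq2. In the A cluster HOXA3, HOXA4, HOXA5, HOXA6 and HOXA7 rose, with slopes of 0.25 to 0.29. HOXA11 had a slope of -0.22 ± 0.12 (adjusted p 0.17), and without COTC022 tumor 64 it fell by 0.39 (adjusted p 0.017).

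Many of these calls did not hold under other settings. The osteoblast score and the GS-1 score had an r of -0.38 (rho -0.30, permutation p 1e-05 for r, the smallest that 100000 permutations can give) and -0.30 without the 2 most extreme tumors. With the GS-1 score in the same fit 3 HOX genes rose, 8.57% of those tested where 12.5% of all genes rose. They were HOXB13, by 0.81 (adjusted p 0.0062), HOXC13 by 0.60 (adjusted p 0.025) and HOXD13 by 0.34 (adjusted p 0.022). Of the 17 genes, 9 passed in COTC021 and 1 in COTC022, which are 25.7% and 2.86% of the HOX genes tested where 8.30% and 9.09% of all genes rose, and no interaction with trial passed. The osteoblast score also rose with depth, at an r of 0.20.

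**Figure D5:**
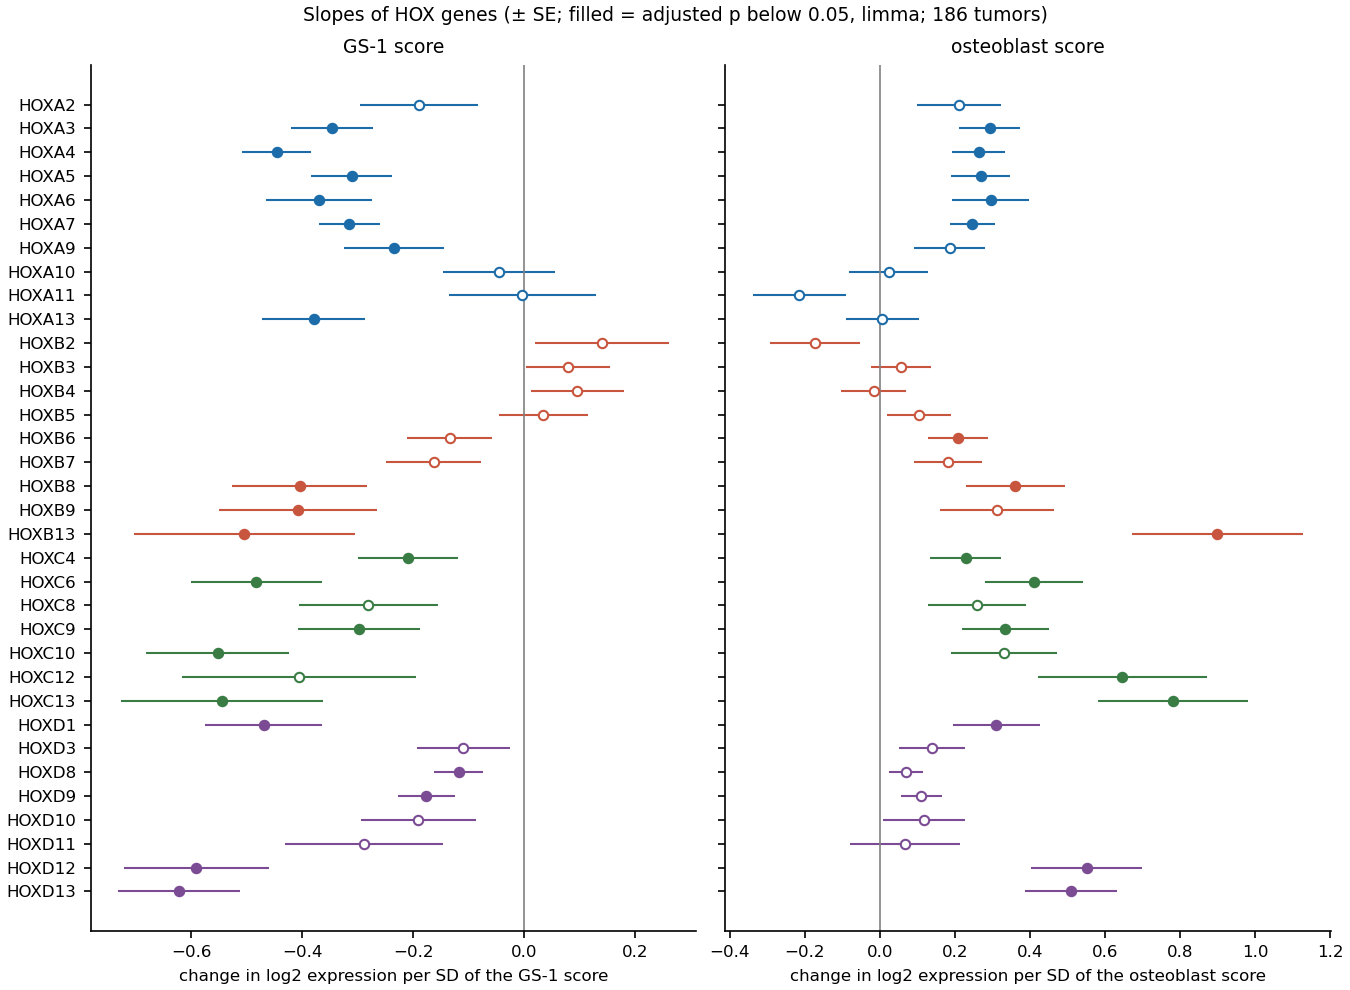
Slopes of 34 HOX genes tested along the GS-1 score (left) and the osteoblast score (right), in change of log2 expression per SD of the score on the horizontal axis, with bars of 1 SE, colours by cluster and filled points for an adjusted p below 0.05 in limma. On the left 20 filled points lie below 0, from HOXD8 at -0.12 to HOXD13 at -0.62, and on the right 16 lie above 0, up to HOXB13 at 0.90.

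Along the cartilage score, over 10 genes of cartilage matrix and its control, 5 HOX genes rose and 0 fell, where 16.0% of all genes rose and 17.3% fell, so the share of HOX genes that rose was close to that of all genes. The genes were HOXC12 at 0.54 ± 0.19, HOXA11 at 0.45 ± 0.12 (adjusted p 0.0011), HOXA13 at 0.40 ± 0.08 (adjusted p 2.9e-05), HOXA9 at 0.22 ± 0.08 and HOXA3 at 0.22 ± 0.08. Without COTC022 tumor 64, HOXC12, HOXA11 and HOXA13 passed. edgeR and DESeq2 did not call HOXA11 or HOXA9.

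Tissue around the tumor was followed through a skeletal muscle and a marrow score. Along the muscle score HOXB2 rose by 0.42 ± 0.11 (adjusted p 0.0030), and HOXC6, HOXC10 and HOXD13 fell by 0.40, 0.40 and 0.36, where 8.67% of all genes rose and 3.66% fell. edgeR called none of the 4, limma called none of them within COTC021, and without COTC022 tumor 64 limma called 6. The sum of muscle markers ran from 3.76 to 91620 CPM with a median of 54.5. Along the marrow score, over 5 genes of blood cell precursors, HOXB3 rose by 0.34 ± 0.07 (adjusted p 0.0019) and no other HOX gene passed, where 1.14% of all genes passed, 0.927% rising and 0.214% falling. HOXB3 is also used in blood stem and precursor cells. Within either trial or either group of libraries HOXB3 did not pass. The marrow score rose with depth, at an r of 0.23 and a rho of 0.32. The muscle score had an r of -0.08 and a rho of -0.17 with depth. The part of depth in these slopes was not tested beyond the term for the group of libraries.

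The partners of the HOX proteins were tested in the same fits. Of 9 cofactor genes listed, 8 were in the table and tested. Along the GS-1 score 3 of the 8 fell and 0 rose, where 23.7% of all genes fell and 24.0% rose, among them PBX3 by 0.12 and MEIS3 by 0.19. Along the osteoblast score 4 of the 8 rose and 1 fell, where 15.7% of all genes rose and 18.3% fell. Among them PKNOX2 rose by 0.40 ± 0.10, MEIS3 by 0.29 and PBX4 by 0.17, and MEIS2 fell by 0.33 ± 0.10. Along the cartilage score 4 of the 8 rose and 0 fell, where 16.0% of all genes rose and 17.3% fell, and MEIS2 rose by 0.52 ± 0.10 (adjusted p 1.7e-05), and MEIS3 and PBX3 rose by 0.21 and 0.11.

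Of 18 other limb patterning genes listed, 15 were tested. Along the GS-1 score 8 of the 15 fell and 1 rose, where 23.7% of all genes fell and 24.0% rose. SHOX2, which controls growth of the upper limb bones, fell by 0.41 ± 0.07 (adjusted p 3.6e-08), TBX3 by 0.39 ± 0.06 (adjusted p 8.0e-08), and HAND2, TBX4, SALL4, GLI3 and TBX2 by 0.20 to 0.44. FGF10, a growth factor of the limb bud, rose by 0.54 ± 0.13. Along the osteoblast score 3 of the 15 rose and 1 fell, where 15.7% and 18.3% of all genes did. TBX2 rose by 0.75 ± 0.07 (adjusted p 9.5e-18), SHOX2 by 0.59 and TBX3 by 0.47, and FGF10 fell by 0.52. Along the cartilage score 8 of the 15 rose and 0 fell, where 16.0% and 17.3% of all genes did, among them TBX5 by 0.81 ± 0.17, PITX1 by 0.77 ± 0.11, HAND2 by 0.74 ± 0.10, EMX2 by 0.65 and TBX4 by 0.64. The limb factors set beside the HOX genes above were thus higher in tumors with more cartilage RNA, and the part of that in their correlations with HOXA11, HOXA13 and HOXC12 was not tested.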

How the data were processed

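RNA of 186 tumors was sequenced from stranded libraries, and the authors trimmed the reads with cutadapt, aligned them with STAR 2.7.0f and deposited RSEM 1.3.1 expected counts per gene on the build UU_Cfam_GSD_1.0. Whether counting used the strand is not given in the sources used here. Of the values, 3.07% were not whole, and all were rounded. Of 198 columns, 12 matched no sample given here and were not used. Trial was taken from the labels. HOX genes were 38 of 37952.

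For tests across all genes, genes with 0.926 CPM (10 counts at the median total) in at least 19 libraries (10%) were kept, which left 15866 genes and 35 HOX genes (not HOXB1, HOXC5 and HOXC11). A gene that passes on few tumors varies by construction. limma 3.58.1 with voom and TMM factors (edgeR 4.0.16, R 4.3.3) was fitted with the group of libraries and, for scores, trial as terms, and p-values were adjusted by Benjamini-Hochberg over all genes at 0.05, two-sided. Scores were mean z-scores of TMM log2 CPM. Correlations used log2(CPM + 0.5) and 100000 permutations (Python 3.11.15, scipy 1.17.1). The limma script was tested on simulated data. Alternatives were edgeR's quasi-likelihood test, DESeq2 1.42.0, other size factors, other filters, no library term, each trial, each group of libraries, and the limb correlations on TMM values.

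HOX genes, limb and cofactor lists, marker lists and tests were chosen with earlier results of these data known. The text names HOX genes, the limb and cofactor lists, and the 5 genes outside the clusters with the highest rho to HOXA11, HOXB7, HOXC10, HOXD10, PITX1 and TBX5, leaving out LOC names. Some listed genes, counted in the totals, are not reported or plotted here. Other genes are named as markers. Counting error is larger in shallow libraries: 1 count is worth 0.0365 to 0.152 CPM.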

Additional observations from a re-analysis of the deposited data

How the results depend on the processing

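No paired analysis was possible because sample numbers only follow the order of the samples and link no tumor of one trial to one of the other. The number of HOX genes called was 0 by trial under each of the 9 alternatives run, while edgeR and DESeq2 called 191 and 188 of all genes where limma called 0. Against 21 HOX genes along the GS-1 score, 2 were called in the 50 deeper libraries (5.71% of those tested, where 8.68% of all genes fell) and 11 in COTC022, and the other alternatives gave 15 to 28. Against 17 along the osteoblast score, 2 were called in the deeper libraries, 6 in the others, 9 in COTC021, 1 in COTC022 and 3 with the GS-1 score in the fit, which are 5.71%, 17.1%, 25.7%, 2.86% and 8.57% of those tested, where 5.10%, 11.4%, 8.30%, 9.09% and 12.5% of all genes rose. Against 5 along the cartilage score, 0 were called in the deeper libraries, 2 in each trial and 3 without COTC022 tumor 64. Against 4 along the muscle score, 0 were called by edgeR, in the deeper libraries and in COTC021, 2 by DESeq2 and 2 in the other libraries. Against 1 along the marrow score, edgeR called 2, DESeq2 3, and each trial and group of libraries 0. These subsets hold fewer tumors. Correlations passed with PITX1 for 6 HOX genes, 0 in the deeper libraries and 1 in each trial; with TBX4 for 3, 0 in the deeper libraries and in COTC021; with TBX5 for 8, 0 in the deeper libraries, 4 in the others and 1 in each trial. Slopes along the GS-1 score that changed sign were all of genes that had not passed and did not pass then. They were HOXA11 (edgeR 0.0617, DESeq2 0.0636, other libraries 0.130, COTC021 0.110, without COTC022 tumor 64 0.0491), HOXA10 (0.0207 without that tumor), HOXB3 (edgeR -0.0405, DESeq2 -0.0451, other libraries -0.0194), HOXB4 (other libraries -0.0451), HOXB5 (edgeR -0.0186, DESeq2 -0.0206, other libraries -0.0916), and in the deeper libraries HOXB6 (0.0619), HOXD10 (0.0153) and HOXD3 (0.0293); the cause was not tested. No slope or limb correlation that passed changed sign under an alternative, and the subsets are parts of the tumors on which these had passed. HOX genes detected in at least 50% of the tumors numbered 31, and 26 to 34 under other limits of detection. Leaving out COTC022 tumor 64 and fitting both scores together were chosen after seeing the data.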

Other observations

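HOTAIR, an RNA gene inside the C cluster between HOXC11 and HOXC12 (positions 45353215 to 45356732 of chromosome 27), was looked at after its values were seen. It was detected in 75 tumors, had no count in 47 and reached 35.9 CPM, with a median of 0.416 CPM. Its rho over the 186 tumors was 0.666 with HOXC12, 0.529 with HOXC13 and 0.475 with HOXC9. HOXC10, HOXB8 and HOXB9 followed at 0.42, 0.41 and 0.37, above HOXC4, HOXC8 and HOXC6 at 0.33, 0.32 and 0.20. HOTAIR was detected in 28 of the 50 deeper libraries and in 47 of the other 136. HOTAIR is read from the strand opposite to the HOXC genes, and whether the counting used the strand is not given in the sources used here.

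HOXB13 was also ranked against genes outside the clusters, a choice made after its values were seen. The closest were PYGO2 (0.628), DLX4 (0.626), COL13A1 (0.622), BMP4 (0.596) and KRTCAP2 (0.587), and BMP4 is a growth factor of bone formation. For PITX1 they were B4GALNT1 (0.588), CHADL (0.548), ARHGDIG (0.545), COL9A3 (0.530), a cartilage collagen chain, and BNC1 (0.491). For TBX5 they were ANKRD35 (0.487), MMP23 (0.476), MRGPRF (0.476), ELN (0.474), which encodes elastin, and PODN (0.468).

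SHH, the signal of the rear edge of the limb bud, had no count in 180 tumors and was detected in 2, at up to 36.3 CPM. EVX2, which lies next to the D cluster, was detected in no tumor, and EVX1, next to the A cluster, in 17.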
